A study of Ovis aries with 40 samples.

Results

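The nuclear genes of oxidative phosphorylation were followed through lung development in wild-type (WT) and CFTR-/- (CF) sheep. Members were taken by gene symbol: symbols beginning NDUFA, NDUFB, NDUFC, NDUFS, NDUFV, UQCR, ATP5 or COX4 to COX8, together with SDHA to SDHD and CYC1, without the NDUFAF assembly factors. The rule found 60 of the 24478 genes in the count tables. They comprise 36 subunits of complex I, 4 of complex II, 1 of complex III (UQCRH), 2 of complex IV (COX5A and NDUFA4) and 14 of complex V. The remaining 3 are ATP5S and ATP5SL, known as factor B of ATP synthase and its relative, and NDUFA4L2, a paralogue of NDUFA4. No symbol beginning COX4, COX6, COX7 or COX8 and no CYC1 was listed under that name, so complex III is represented by 1 gene and complex IV by 2. A further 4 identifiers of the form LOC matched the rule by their RefSeq gene number (ATP5IF1, ATP5F1E, ATP5MK and NDUFAB1) and were left out of the 60. All 60 members passed the filter on low counts in every fit.

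Oxidative phosphorylation takes place at the inner mitochondrial membrane. Complex I oxidises NADH and complex II oxidises succinate, complexes III and IV carry the electrons on to oxygen, and complex V (ATP synthase) makes ATP from the proton gradient that results. Most subunits are encoded in the nucleus and a small core is encoded in mitochondrial DNA, and in the lung the demand for ATP includes surfactant secretion and ion transport by the epithelium.

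The 40 RNA-seq libraries fall into 20 groups of 2: WT or CF animals, proximal or distal lung, at gestation days 65, 80, 100, 120 and 147, the last being term. All animals were American Romney sheep. WT animals came from natural mating and those at term were born naturally. The paper names the time between birth and tissue collection as a factor in the term transcriptome. That time was not part of the tests here, so age and events after birth cannot be told apart at term. CF animals were cloned by nuclear transfer from 1 line of male fetal fibroblasts (CF 60) in which exon 2 of CFTR had been targeted, so that genotype, cell line of origin and cloning cannot be told apart. The RNA came from pieces of frozen tissue. The tissue is labelled as epithelial, but 12 pericyte and smooth muscle markers summed to between 743.5 and 2675 CPM (counts scaled to the size of the library, in the usual per-million unit) and 8 epithelial markers to between 612.4 and 27660 CPM in single libraries, so several cell types were present. In such bulk samples, fewer cells of a type and less RNA per cell cannot be told apart. Proximal and distal libraries of a replicate number carry the same animal label, both WT day 100 replicates carry 1 label, and WT day 65 replicate 2 and CF day 100 replicate 2 share another.

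Depth went with genotype before term, when totals were 24670355 to 43700012 counts in WT and 85773994 to 103139483 in CF. At term they were 115937437 to 126749480 and 117316905 to 119451372. In WT, depth therefore also went with day, as every term library was deeper than every earlier one. Differences in sequencing that go with depth cannot be told apart from term in WT lung. CFTR, the targeted gene, ranged from 9.58 to 43.8 CPM over 20 WT libraries and from 3.65 to 34.9 CPM over 20 CF libraries, and these ranges overlapped. Several CF pairs stood apart from the rest in a way that touches the members. For each library, the level of the list was taken as the median over the 60 members of log2 CPM after each gene was centred on its mean over all 40 libraries. In CF proximal lung at day 120 this level was -0.84 in replicate 1 and 0.90 in replicate 2, a larger gap than in any other pair. The 74 ribosomal protein genes moved with it (-1.25 and 1.05), as did genes of at most 1606 bases, the shortest 25% of all genes (-0.34 and 0.47). The share of counts from mitochondrially encoded genes moved the other way (1.92% and 0.942%). In CF distal lung at day 120 the members were at -1.03 and -0.02. The 13 markers of cardiac and striated muscle, which is rich in mitochondria, summed to 1501 CPM in CF proximal day 65 replicate 1 (55.5 CPM in replicate 2) and to 753 CPM in CF proximal day 80 replicate 2 (34.6 CPM in replicate 1), and to 11.4 to 65.4 CPM in the other libraries. The members' level in those pairs was -0.13 and -0.62 at day 65 and 0.11 and -0.56 at day 80, and the part of muscle in it was not tested. The members are short, with a median length of 845.5 bases against 2497 over all genes, and within these pairs the shorter members differed more. Between the CF proximal day 120 libraries the 30 shorter members differed by a median of 2.20 on the log2 scale and the 30 longer by 1.29. The part of gene length in the results was examined by removing a length trend, and those medians are given for each comparison of days and of genotypes described by a median over the 60 members.

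**Figure D1:**
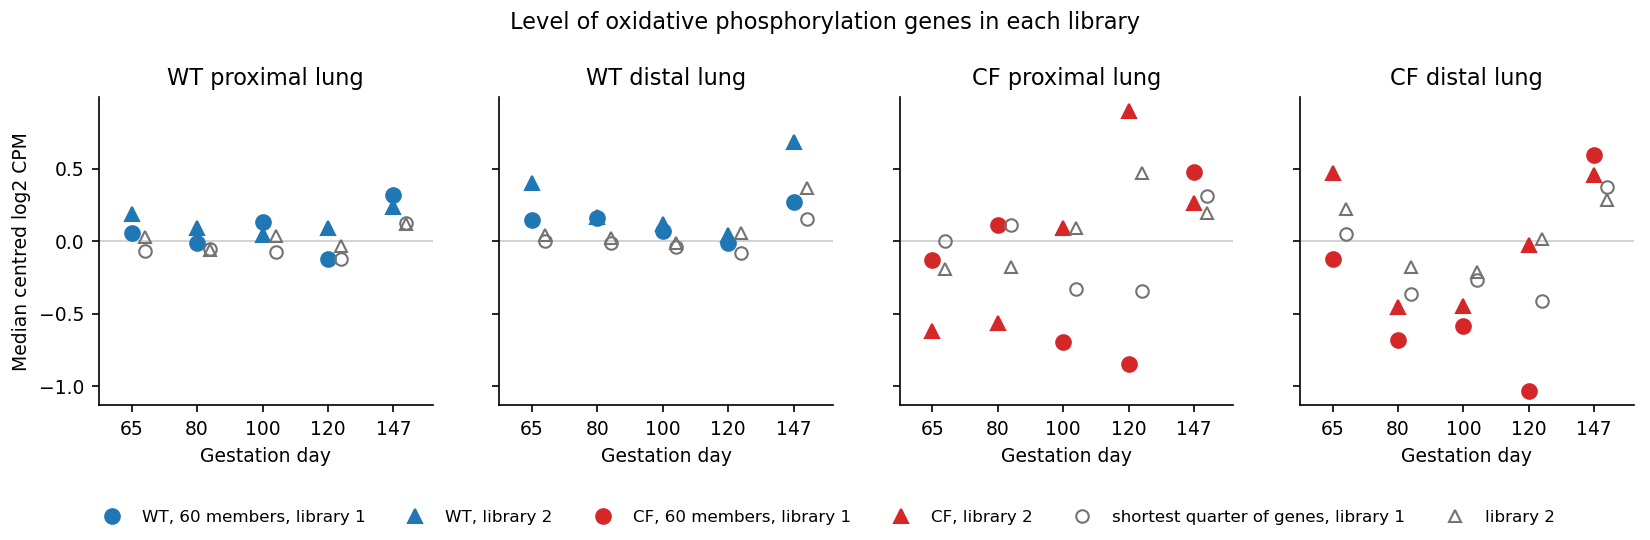
Level of the list in each library, as the median over 60 members of centred log2 CPM (y axis) by gestation day (x axis, evenly spaced) in 4 panels of genotype and region. Filled symbols are members and open grey symbols the shortest 25% of all genes, with circles for replicate 1 and triangles for replicate 2. WT libraries lay between -0.12 and 0.69, CF libraries between -1.03 and 0.90, and at CF proximal day 120 the grey symbols stood apart in the same direction as the filled ones.

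The members differed widely in level. Per kilobase of transcript model, the mean over 40 libraries was highest for ATP5G2 at 598 CPM, a c-ring subunit of ATP synthase. UQCRH, the hinge subunit of complex III, was at 352 CPM per kilobase and NDUFA4 at 131. In complex I the range ran from NDUFS6 (11.2) to NDUFS5 (166), both accessory subunits, and in complex II from SDHB (18.2), the iron-sulfur subunit, to SDHD (82.5), a membrane anchor. Within complex V the lowest was ATP5G1 (49.6), which encodes the same mature c subunit as ATP5G2 and ATP5G3 (196) behind a different targeting peptide. COX5A was at 66.6 CPM per kilobase. Level per length leaves the order of neighbours uncertain where transcript models are incomplete.

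Between day 65 and day 120 few members passed the test in WT lung, and most steps had a median slightly below 0. The median log2 fold change over the 60 was -0.11 from day 65 to 80, 0.04 from 80 to 100 and -0.07 from 100 to 120 in proximal lung, and -0.11, -0.08 and -0.10 in distal lung, beside medians over all genes between -0.02 and 0.00. Without the length trend these were -0.06, 0.01 and -0.03 in proximal lung and -0.07, -0.06 and -0.11 in distal lung. In distal lung both later libraries lay below both earlier ones for 31 members from day 80 to 100 (28.6% of all genes) and above for 5 (28.7%), and from day 100 to 120 below for 27 (29.6%) and above for 11 (28.2%). The test throughout is edgeR's quasi-likelihood test, its p-values adjusted by Benjamini-Hochberg across every gene in the fit, and a gene is said to have risen or fallen where the adjusted p was at most 0.05. None passed from day 65 to 80, where 0.011% of all genes rose and 0% fell in proximal lung and 0.0109% rose and 0.00547% fell in distal lung. None passed from day 80 to 100, where 1.27% rose and 0.665% fell in proximal lung and 0.75% rose and 0.252% fell in distal lung. At an unadjusted p under 0.05, 0 and 6 members in proximal and 1 and 3 in distal lung would have counted, where 5.5%, 14.8%, 3.99% and 12.7% of all genes would have. From day 100 to 120, 1 member rose in proximal lung (1.39% of all genes rose and 1.29% fell) and 2 in distal lung (1.34% rose and 1.16% fell). NDUFA4L2 rose in both, by 1.37 ± 0.23 (SE) in proximal lung (adjusted p = 0.018, edgeR) and by 0.98 ± 0.16 in distal lung (adjusted p = 0.022, edgeR). NDUFS8, a core iron-sulfur subunit of complex I, rose by 0.67 in distal lung (adjusted p = 0.048, edgeR). When each of 10 libraries was left out in turn, NDUFA4L2 was called in 6 fits in each region, the adjusted p reaching 0.15 when proximal day 100 replicate 2 was dropped and 0.24 when distal day 100 replicate 2 was dropped (edgeR), and NDUFS8 in 2. The WT day 100 libraries carry 1 animal label, and with them summed to 1 sample none of these 3 calls held, with adjusted p = 0.12 and 0.24 for NDUFA4L2 and 0.34 for NDUFS8 (edgeR).

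In CF lung no member passed before term. The medians of the members were 0.20, -0.08 and 0.54 for the same steps in proximal lung and -0.80, 0.09 and 0.10 in distal lung. Without the length trend they were 0.09, -0.08 and 0.25 in proximal lung and -0.32, 0.06 and 0.03 in distal lung. From day 100 to 120, 0.0152% of all genes rose and 0.00508% fell in CF proximal lung and 0.528% rose and 0.4% fell in CF distal lung, and no gene passed in the earlier steps. In CF distal lung 59 of 60 members were lower at day 80 than at day 65 and 40 had an unadjusted p under 0.05, as did 17.4% of all genes (edgeR).

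Between day 120 and term more members rose. In WT proximal lung 13 of 60 rose and 1 fell, where 13.5% of all genes rose and 11.1% fell. The median log2 fold change of the members was 0.29, against 0.06 over all genes, and 0.13 once the length trend was removed. In WT distal lung 25 rose and 1 fell, where 13.5% of all genes rose and 12.3% fell, and the median was 0.43 against 0.04 over all genes, or 0.18 without the length trend. Both term libraries lay above both day 120 libraries for 38 members in proximal lung (37.1% of all genes did so) and for 44 in distal lung (34.1%), and below them for 3 (29.8%) and 2 (28.7%). By complex, 7 of 36 complex I subunits, 3 of 4 complex II subunits and 2 of 14 complex V subunits rose in proximal lung. In distal lung these counts were 17, 3 and 4. The median change was 0.31, 0.46 and 0.24 for complexes I, II and V in proximal lung and 0.48, 0.54 and 0.38 in distal lung.

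The counts of calls rested on single libraries. Without 1 of the 4 libraries of the days compared, 3, 2, 5 and 3 members were called in WT proximal lung (without day 120 replicates 1 and 2 and term replicates 1 and 2). In WT distal lung the count was 2, 4, 41 and 6 in the same order, and 13 to 15 without any 1 of the day 80 or day 100 libraries. With the WT day 100 libraries summed to 1 sample, 11 rose and 1 fell in distal lung, and also in proximal lung. The sign of the median stayed positive in each of these fits, from 0.18 to 0.38 in proximal and from 0.20 to 0.63 in distal lung. With counts thinned to the shallowest library, 11 members rose and 1 fell in proximal lung (median 0.28). Of 17583 genes 2324 rose and 2012 fell there. In distal lung 23 members rose and 1 fell in thinned counts (median 0.39), beside 2317 and 2298 of 17552 genes. Of epithelial markers 7 of 8 and of macrophage markers 6 of 7 rose in WT proximal lung over the same interval (5 of 8 and 6 of 7 in distal lung). The summed macrophage level was 85.0 to 171 CPM before term and 743 to 1613 CPM at term, and the part of cell makeup in the members' change was not tested.

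**Figure D2:**
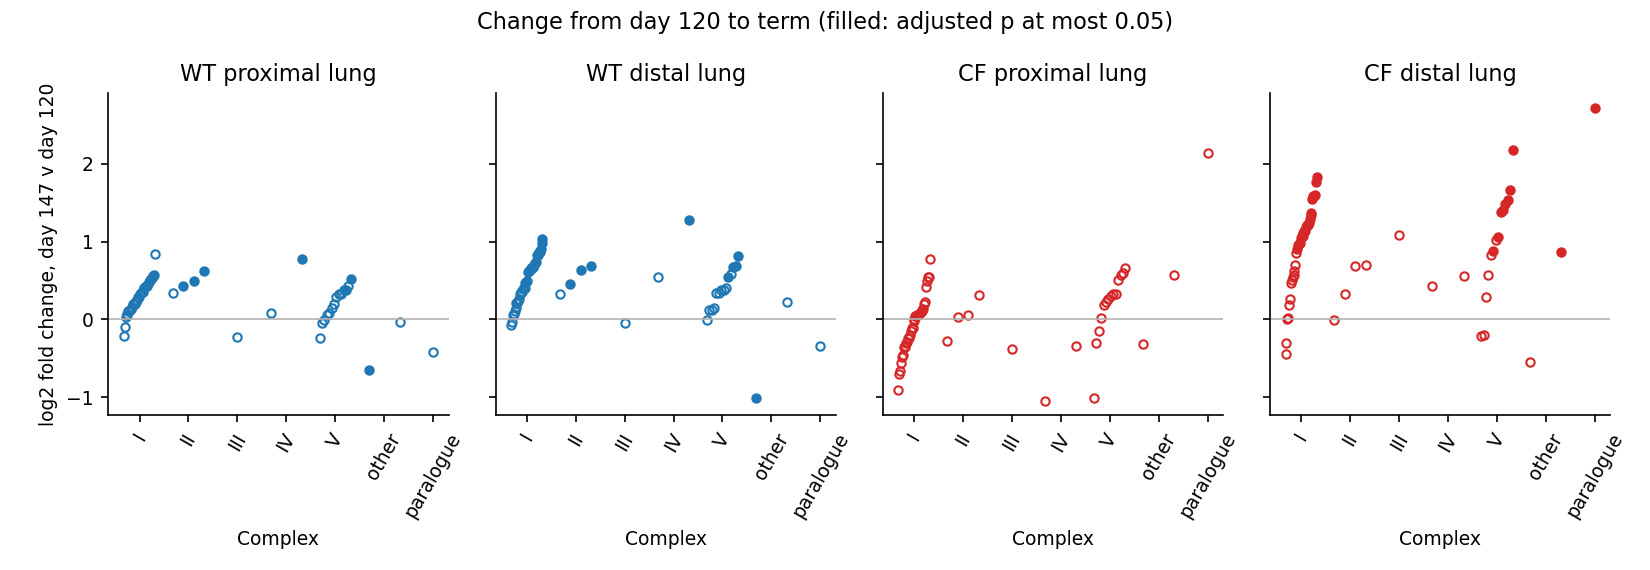
Log2 fold change from day 120 to day 147 (y axis) of each of the 60 members, grouped by complex (x axis), in 4 panels of genotype and region. Filled points have an adjusted p of at most 0.05, which 14, 26, 0 and 29 members reached in WT proximal, WT distal, CF proximal and CF distal lung.

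With every library kept, complex II had the highest share of measured subunits that rose at term in WT lung, 3 of 4 in each region. This ranking rests on few genes and on calls that single libraries moved. SDHA, the flavoprotein that oxidises succinate, lies on chromosome 16 from 70488691 to 70510275 (plus strand, Oar_v4.0), and the study used it as a control gene for RT-qPCR. Its primers are shown because a control gene is read against the assumption of a steady level:
SDHA forward primer: catccactacatgacggagca
SDHA reverse primer: atcttgccatcttcagttctgcta

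In WT proximal lung SDHA was at 73.1 and 65.2 CPM at day 120 and at 110 and 104 CPM at term. In WT distal lung it was at 77.9 and 72.9 CPM and then at 119 and 127 CPM. No WT library before term exceeded 77.9 CPM and no term library was below 104 CPM. The rise was 0.63 ± 0.13 on the log2 scale in proximal lung (adjusted p = 0.0099, edgeR) and 0.69 ± 0.11 in distal lung (adjusted p = 0.0037, edgeR), and 0.50 and 0.55 with the length trend removed. In proximal lung the adjusted p was 0.081 when day 120 replicate 2 was dropped (edgeR). From day 65 to term SDHA in distal lung rose by 0.85 ± 0.11 (adjusted p = 4.5e-04, edgeR). With NDUFS8 it was 1 of 2 members in any WT comparison that met the study's rule for a differentially expressed gene (DEG), an adjusted p of at most 0.001 with a log2 fold change of at least 0.58 in size, a rule that 11.7% of all genes met in that comparison. With the WT day 100 libraries summed 0 members met it.

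In CF lung SDHA was at 73.2 and 129 CPM at day 120 and 82.9 and 87.3 CPM at term in proximal lung. In distal lung it was 71.5 and 101 CPM and then 91.0 and 80.5 CPM. The libraries of the days overlapped in both regions. The fold change from day 120 to term was -0.28 ± 0.35 (adjusted p = 0.77, edgeR) and -0.01 ± 0.19 (adjusted p = 0.99, edgeR), and the test of the difference between genotypes in this change gave -0.88 in proximal lung (adjusted p = 0.29, edgeR) and -0.69 in distal lung (adjusted p = 0.064, edgeR). At term SDHA was lower in CF than in WT distal lung by a log2 fold change of -0.49 (adjusted p = 0.047, edgeR). That call held in 7 of 20 fits that each left out 1 library, and the adjusted p was 0.18 without CF distal day 147 replicate 2 (edgeR).

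SDHB, the iron-sulfur subunit, was at 54.6 and 56.8 CPM at day 120 and 73.6 and 83.4 CPM at term in WT proximal lung, and at 54.2 and 60.3 CPM and then 77.7 and 102 CPM in WT distal lung. It rose by 0.49 (adjusted p = 0.023, edgeR) and 0.63 (adjusted p = 0.020, edgeR). SDHC, a membrane anchor with SDHD, rose by 0.43 in proximal lung (adjusted p = 0.025, edgeR) and 0.45 in distal lung (adjusted p = 0.044, edgeR). In neither region did the calls of SDHB and SDHC both hold without day 120 replicate 1. SDHD was also higher in both term libraries than in both day 120 libraries in each region, by 0.34 (adjusted p = 0.11, edgeR) and 0.33 (adjusted p = 0.17, edgeR). From day 65 to term in WT proximal lung all 4 subunits rose, SDHA by 0.63, SDHD by 0.59, SDHB by 0.49 and SDHC by 0.44. Over the same span in WT distal lung SDHA and SDHB rose, by 0.85 and 0.64, while SDHD was at 0.32 (adjusted p = 0.16, edgeR) and SDHC at 0.26 (adjusted p = 0.17, edgeR).

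**Figure D3:**
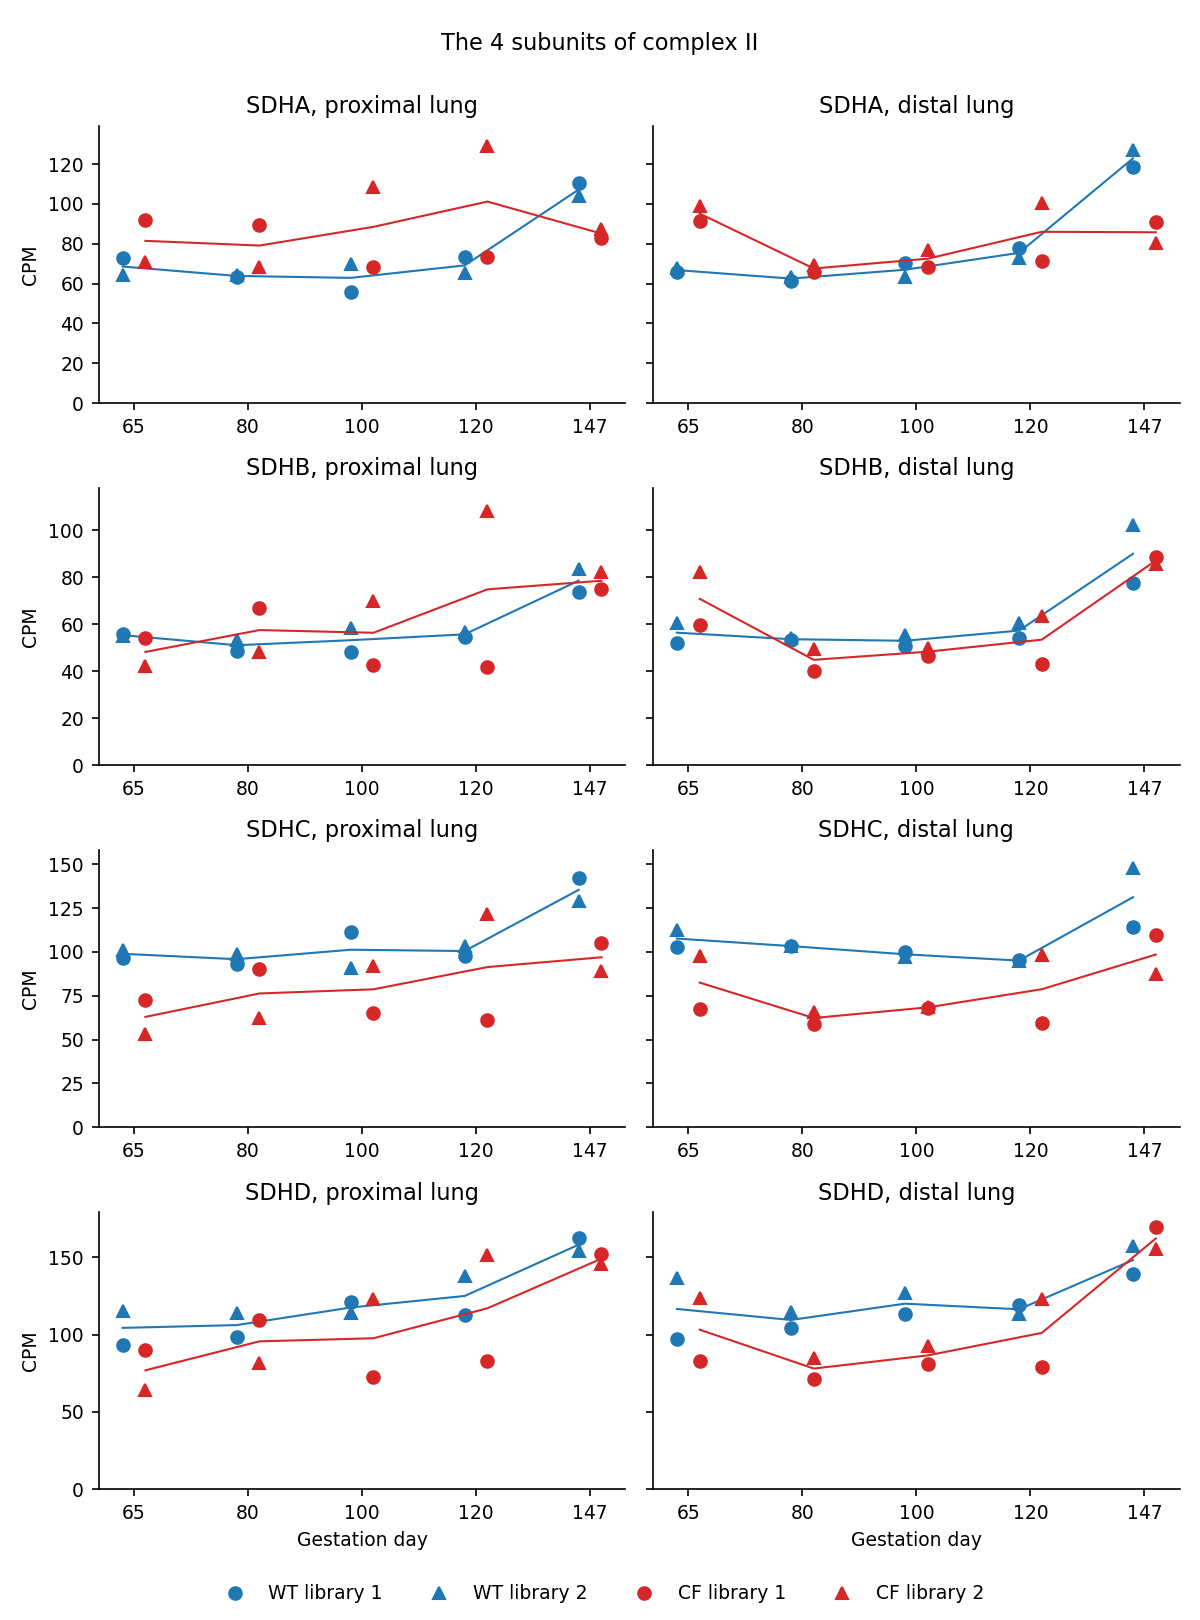
CPM (y axis, from 0) of SDHA, SDHB, SDHC and SDHD by gestation day (x axis, evenly spaced) in proximal and distal lung, with WT in blue and CF in red. Circles are replicate 1, triangles replicate 2 and lines join the means of 2 libraries. WT SDHA stayed between 55.9 and 77.9 CPM before term and was 104 to 127 CPM at term, while the CF libraries scattered from 65.6 to 129 CPM.

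COX5A, a nuclear subunit of cytochrome c oxidase, had the largest rise among the members called at term in each WT region. It was at 40.1 and 39.6 CPM at day 120 and 68.0 and 69.1 CPM at term in proximal lung. In distal lung the values were 31.4 and 38.4 CPM and then 62.8 and 108 CPM. The rise was 0.78 ± 0.13 in proximal lung (adjusted p = 0.0034, edgeR) and 1.27 ± 0.26 in distal lung (adjusted p = 0.0086, edgeR). The proximal rise was called without each of the 10 libraries in turn, and the distal rise in 9 of 10 such fits, the exception being WT distal day 120 replicate 1 (adjusted p = 0.076, edgeR). In CF lung COX5A was at 28.2 and 166 CPM at proximal day 120 and at 61.7 and 34.3 CPM at term.

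Among complex I subunits, the accessory subunit NDUFA1 was at 20.2 and 20.5 CPM at day 120 and 28.0 and 32.1 CPM at term in WT proximal lung, and at 22.1 and 21.4 CPM and then 32.5 and 54.0 CPM in WT distal lung. It rose by 0.56 (adjusted p = 0.040, edgeR) and 0.98 (adjusted p = 0.017, edgeR). NDUFA3, another accessory subunit, rose by 1.03 in distal lung (adjusted p = 0.030, edgeR). The core subunit NDUFV1, which binds NADH, rose by 0.52 in proximal lung (adjusted p = 0.035, edgeR) and 0.70 in distal lung (adjusted p = 0.012, edgeR). NDUFB9, an accessory subunit, rose by 0.56 in proximal lung (adjusted p = 0.011, edgeR). No complex I subunit fell between day 120 and term in either WT region. Over the whole span from day 65 to term 12 members rose and 3 fell in WT proximal lung (23.5% and 21.5% of all genes) and 15 rose and 4 fell in WT distal lung (21.8% and 21%). Without term replicate 1 or 2 the proximal count of 15 was 8 or 9, and without distal day 65 replicate 1 the distal count of 19 was 10. It was 11 or 12 without any 1 of the distal day 80 or day 100 libraries, and 11 with the day 100 libraries summed, and in each of these fits 1 member fell. The median change over this span was 0.12 in proximal lung (0.044 without the length trend) and 0.14 in distal lung (-0.019). NDUFS8 was at 21.0 and 19.2 CPM at day 65 and 44.2 and 49.0 CPM at term in WT distal lung, a rise of 1.18 ± 0.14 (adjusted p = 2.9e-04, edgeR). The accessory subunit NDUFB10 rose there by 0.91 (adjusted p = 0.0023, edgeR), and in proximal lung NDUFB9 and NDUFA13, both accessory subunits, rose by 0.70 (adjusted p = 0.0015, edgeR) and 0.65 (adjusted p = 0.0035, edgeR). NDUFB3 and NDUFB5, accessory subunits of the membrane arm, and the c-ring gene ATP5G2 fell over this span in both regions. NDUFB3 fell by 0.68 in proximal (adjusted p = 0.0054, edgeR) and 0.80 in distal lung (adjusted p = 0.018, edgeR), and ATP5G2 fell by 0.53 (adjusted p = 0.018, edgeR) and 0.54 (adjusted p = 0.032, edgeR). Of 10 fits that each left out 1 distal library, the fall of NDUFB3 was called in 8 and those of NDUFB5 and ATP5G2 in 2 each. Of the 10 proximal fits these falls were called in 10, 5 and 7.

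Of the 3 c-ring genes, ATP5G1 was at 33.2 and 40.8 CPM at proximal day 120 and 58.2 and 47.9 CPM at term, and rose by 0.52 (adjusted p = 0.036, edgeR), with 0.69 in distal lung (adjusted p = 0.033, edgeR). ATP5G2 was at 347 and 446 CPM at proximal day 120 and at 346 and 326 CPM at term, and ATP5G3 at 129 and 158 CPM and then 186 and 174 CPM, and neither passed the test in that interval. At term ATP5G1 was 46.0 and 15.2 CPM in CF proximal and 53.4 and 15.1 CPM in CF distal lung, so that replicate 2, which is 1 animal label in both regions, was at the lowest values of this gene in the series. ATP5I, a small membrane subunit of ATP synthase, rose by 0.82 in WT distal lung (adjusted p = 0.019, edgeR).

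ATP5S went the other way. It was at 26.2 and 32.1 CPM at day 120 and 18.0 and 19.1 CPM at term in WT proximal lung. In WT distal lung it was at 28.4 and 31.9 CPM and then 15.6 and 14.7 CPM. It fell by 0.65 ± 0.16 (adjusted p = 0.016, edgeR) and by 1.01 ± 0.17 (adjusted p = 0.0043, edgeR), and was the only member that fell in either WT region between these days. In CF distal lung ATP5S was at 11.7 and 19.3 CPM at day 120 and 26.4 and 30.1 CPM at term and rose by 0.87 ± 0.26 (adjusted p = 0.043, edgeR), a call that held in 1 of 10 fits that each left out 1 library. The fall in WT proximal lung held in 7 of 10 such fits and that in WT distal lung in 10 of 10. The difference between genotypes in this change was 1.88 ± 0.32 in distal lung (adjusted p = 0.0039, edgeR), and this test passed without each of the 20 libraries in turn.

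In CF distal lung, between day 120 and term, 29 members rose and 0 fell, where 11.5% of all genes rose and 11.5% fell. The counts were 19 of 36 for complex I, 0 of 4 for complex II and 8 of 14 for complex V. The median was 0.97 against -0.06 over all genes, and 0.31 with the length trend removed. Over both CF regions, macrophage markers summed to 69.8 to 163 CPM before term and 226 to 369 CPM at term. Epithelial markers summed to 612 to 22310 and 8329 to 27660 CPM, and proliferation markers to 244 to 962 and 76.4 to 108 CPM. The part of cell makeup in the members' change was not tested. ATP5I was at 16.6 and 43.1 CPM at day 120 and 145 and 124 CPM at term and rose by 2.18 ± 0.40 (adjusted p = 0.0097, edgeR). NDUFA1 was at 9.09 and 22.2 CPM and then 54.6 and 56.7 CPM and rose by 1.84 ± 0.43 (adjusted p = 0.020, edgeR). NDUFV2, the iron-sulfur partner of NDUFV1 in the NADH-binding module, was at 81.5 and 101 CPM and then 167 and 190 CPM and rose by 0.96 ± 0.19 (adjusted p = 0.011, edgeR). For ATP5I, NDUFA1 and NDUFV2 the libraries of the days did not overlap. The members' count was 3 without CF distal day 120 replicate 1 (median 0.61), 14 (12 that rose and 2 that fell) without CF distal day 147 replicate 1, 3 without CF distal day 147 replicate 2, and 17, 17, 14 and 14 without the day 80 and day 100 libraries. The difference between genotypes in the change to term was tested in the same fits as CF against WT, and 3 members passed in distal lung, NDUFA4L2, ATP5S and NDUFV2, where 4.21% of all genes had a positive and 5.1% a negative difference. For NDUFV2 it was 0.76 ± 0.21 (adjusted p = 0.038, edgeR), called in 7 of 20 fits that each left out 1 library. The 3 distal differences were positive. The distal count was 26, all positive, without CF distal day 120 replicate 2, and 5, all positive, without either CF distal day 65 library. Without CF distal day 147 replicate 1 it was 8, of which 4 were positive and 4 negative. In proximal lung 1 member passed, NDUFA4L2, where 0.585% of all genes had a positive and 1.19% a negative difference. Without CF proximal day 120 replicate 1 the proximal count was 10, of which 1 was positive and 9 negative, and without replicate 2 it was 2, both positive. It was 0 without either WT proximal day 120 library, WT proximal term replicate 2 or CF proximal term replicate 2.

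In CF proximal lung no member passed the test between day 120 and term, where 0.0762% of all genes rose and 0.279% fell (edgeR). At an unadjusted p under 0.05, 2 members would have counted, against 15.1% of all genes, and DESeq2 called 2, both higher, beside 612 genes that rose and 784 that fell of 19690. The median was 0.05, and 0.01 without the length trend. It was 1.20 without CF proximal day 120 replicate 2 and -0.57 without replicate 1, so the direction rested on which of these libraries was used. From day 65 to term the median was 0.71 in CF proximal and 0.33 in CF distal lung, and 0.38 and 0.06 without the length trend. In that span 1 member rose in CF proximal lung (5.78% of all genes rose and 5.83% fell) and 5 rose and 1 fell in CF distal lung (16.1% and 15%). In CF distal lung ATP5I rose over this span by 1.58 (adjusted p = 0.016, edgeR) and ATP5D, a subunit of the central stalk of ATP synthase, by 0.93 (adjusted p = 0.045, edgeR). NDUFA10, an accessory subunit of complex I, was the member that fell, by 1.01 (adjusted p = 0.034, edgeR). The proximal count was 0 without either CF proximal day 65 library and 10 without either CF proximal day 120 library. The distal count was 1 without CF distal day 65 replicate 1, 2 or 3 without any 1 of the CF distal day 80 or day 100 libraries, 2 without term replicate 2 and 13 without either CF distal day 120 library. No member fell in the fits with 1 to 3 calls, and 2 fell in those with 13.

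NDUFA4 differed between genotypes over the 5 days in both regions, and so did NDUFA4L2, whose difference was also called in both regions at term. NDUFA4 was first described with complex I and is now counted as a subunit of cytochrome c oxidase, and NDUFA4L2 is known as a gene induced by hypoxia-inducible factor that lowers complex I activity. NDUFA4 lies on chromosome 4 from 19001142 to 19008503 (minus strand) and NDUFA4L2 on chromosome 3 from 161906145 to 161908419 (plus strand) in Oar_v4.0. NDUFA4 ranged from 82.3 to 144 CPM over the 20 WT libraries, with a median of 97.6. It ranged from 20.2 to 80.9 CPM over the 20 CF libraries, with a median of 30.0. Every CF library was below every WT library, which held for 18 of the 20779 genes (0.0866%), and NDUFA4 was the only member for which it did. The highest CF value, 80.9 CPM, was CF proximal day 120 replicate 2, the library in which the members as a whole were highest. Averaged over the 5 days the log2 fold change, CF against WT, was -1.30 ± 0.22 in proximal lung (adjusted p = 0.0011, edgeR) and -1.64 ± 0.15 in distal lung (adjusted p = 2.8e-06, edgeR), or -1.34 and -1.45 with the length trend removed. Both calls held without each of 20 libraries in turn. By day NDUFA4 was lower in CF distal lung at all 5 days, from -1.22 at day 65 (adjusted p = 0.046, edgeR) to -2.12 at day 80 (adjusted p = 0.0032, edgeR). The day 65 call held in 7 of 20 fits that each left out 1 library, the day 80 call in 20, the day 100 and day 120 calls in 17 each and the term call in 18. The highest adjusted p was 0.23 at day 65, without CF replicate 1, 0.079 at day 100, without CF replicate 2, 0.13 at day 120, without CF replicate 1, and 0.10 at term, without CF replicate 2 (edgeR). With the WT day 100 libraries summed the day 100 value was -1.95 (adjusted p = 0.055, edgeR). In proximal lung no single day passed, with -1.67 at day 65 (adjusted p = 0.18, edgeR) and -1.13 at term (adjusted p = 0.20, edgeR).

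NDUFA4L2 was at 13.0 to 51.6 CPM in WT lung. In WT proximal lung it was at 21.3 and 17.7 CPM at day 100, 51.6 and 48.0 CPM at day 120 and 46.2 and 28.3 CPM at term. In CF proximal lung it was at 17.9 and 33.8 CPM at day 100, 45.4 and 93.4 CPM at day 120 and 225 and 403 CPM at term. CF distal lung held it at 37.4 and 66.9 CPM at day 120 and 227 and 459 CPM at term, against 39.5 and 34.3 CPM in WT distal lung at term. All 4 CF term libraries were above every other library. The paper reports hypoxia-related genes as higher in both CF animals at term, and a link to NDUFA4L2 was not tested. At term the log2 fold change, CF against WT, was 3.08 in proximal lung (adjusted p = 8.2e-04, edgeR), where NDUFA4L2 was the only member called in either direction (2.6% of all genes were higher and 3.49% lower in CF). Without CF proximal day 120 replicate 1 the count there was 2 higher and 2 lower, without replicate 2 of that day 2 higher and 3 lower, and without CF proximal term replicate 1 it was 1 higher and 3 lower. It was 3.24 in distal lung (adjusted p = 4.7e-05, edgeR), where 2 members were higher and 4 lower (7.65% and 7.57% of all genes). The distal term count of 6 was 11 (2 higher and 9 lower) without CF day 147 replicate 1, 1 without CF replicate 2 and 2 without WT replicate 2 of that day. The change from day 120 to term differed between genotypes by 2.60 ± 0.54 in proximal lung (adjusted p = 0.027, edgeR) and by 3.06 ± 0.41 in distal lung (adjusted p = 0.0011, edgeR). The proximal call held in 16 of 20 fits that each left out 1 library, with a highest adjusted p of 0.13 without WT term replicate 2 (edgeR), and the distal call in 20. In WT lung the change itself was -0.43 (adjusted p = 0.20, edgeR) and -0.34 (adjusted p = 0.15, edgeR). In CF lung it was 2.14 in proximal (adjusted p = 0.10, edgeR) and 2.72 ± 0.36 in distal lung (adjusted p = 0.0032, edgeR). From day 65 to term NDUFA4L2 rose by 1.34 in WT proximal (adjusted p = 0.0013, edgeR) and 1.01 in WT distal lung (adjusted p = 0.0013, edgeR), and by 3.21 in CF proximal (adjusted p = 0.0061, edgeR) and 3.20 in CF distal lung (adjusted p = 3.6e-04, edgeR). At day 65 it was higher in CF than in WT distal lung, by 1.08 (adjusted p = 0.045, edgeR), a call that held in 4 of 20 fits that each left out 1 library. At day 80 it was at 14.3 and 15.0 CPM in CF and 14.9 and 16.8 CPM in WT distal lung, and at day 100 at 19.3 and 18.7 CPM in CF, below 23.7 and 23.2 CPM in WT, and neither day passed the test (adjusted p = 0.86 and 0.58, edgeR). Averaged over the 5 days it was higher in CF by 1.14 ± 0.17 in proximal (adjusted p = 5.6e-04, edgeR) and 0.81 ± 0.13 in distal lung (adjusted p = 3.3e-04, edgeR), calls that held in all 20 such fits. Both paralogues were measured in each library, and per kilobase NDUFA4L2 stood at 0.0697 to 0.330 times NDUFA4 in WT lung (0.128 to 0.272 at term), at 0.289 to 1.14 times NDUFA4 in CF lung before term and at 2.12 to 8.04 times NDUFA4 in the 4 CF term libraries.

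**Figure D4:**
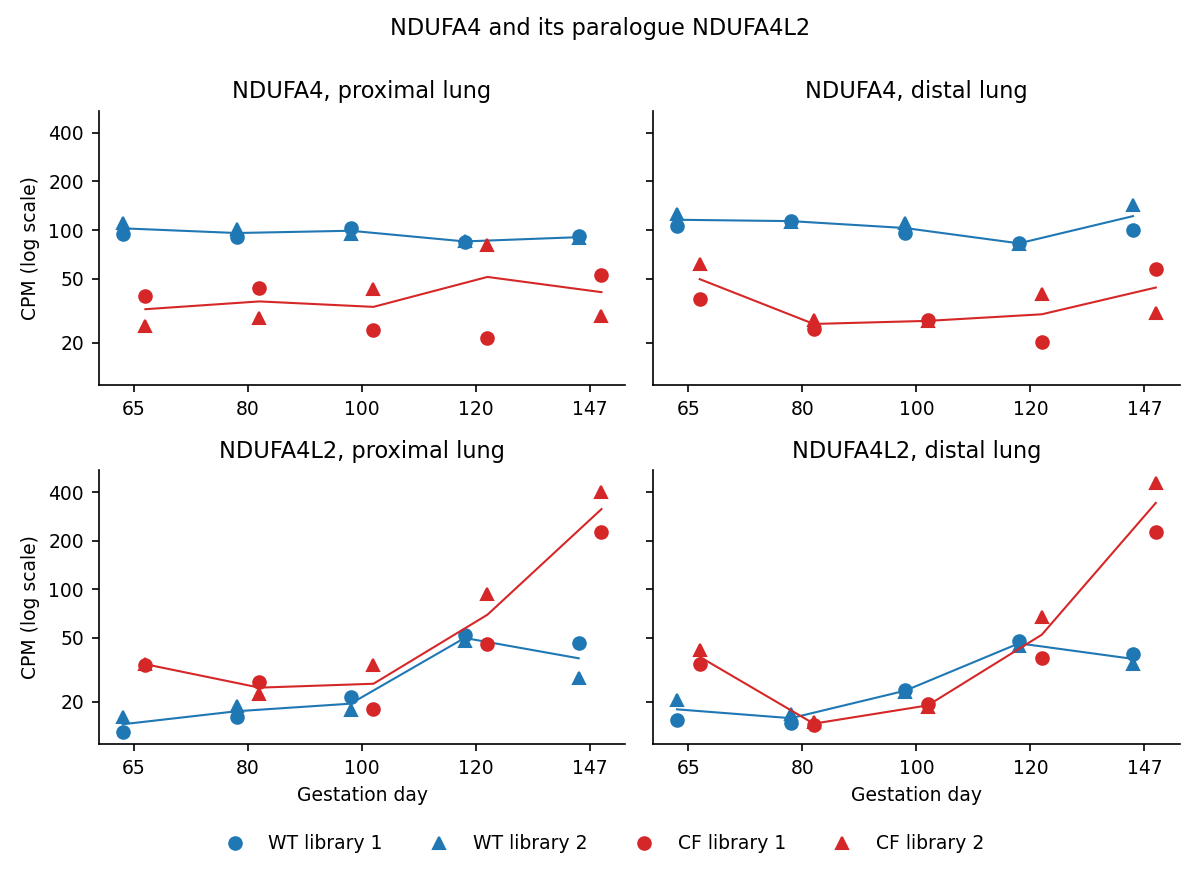
CPM on a log scale (y axis) of NDUFA4 and NDUFA4L2 by gestation day (x axis, evenly spaced) in proximal and distal lung, with WT in blue and CF in red. Circles are replicate 1, triangles replicate 2 and lines join means of 2 libraries. CF values of NDUFA4 were all below the WT range of 82.3 to 144 CPM, and CF values of NDUFA4L2 reached 225 to 459 CPM at term against 28.3 to 46.2 CPM in WT.

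Averaged over the 5 days, 1 member was higher and 28 were lower in CF distal lung, where 18% of all genes were higher and 13.2% lower. The median log2 fold change was -0.37 against 0.01 over all genes, and -0.24 with the length trend removed. The 28 comprised 17 of 36 complex I subunits, 1 of 4 of complex II and 8 of 14 of complex V, together with UQCRH and NDUFA4. In proximal lung 1 member was higher and 7 lower (13.9% and 7.91% of all genes), and the median was -0.14, or -0.18 without the length trend. By day the proximal median was -0.45, -0.19 and -0.39 at days 65, 80 and 100, 0.33 at day 120 and 0.23 at term. Without the length trend these were -0.41, -0.19, -0.27, 0.095 and 0.084. With the trend kept, the day 120 median was -0.87 without CF replicate 2 of that day, and the day 80 median 0.13 without CF replicate 2 of its own day. The 6 other than NDUFA4 were NDUFC1, NDUFB2, NDUFA5, ATP5F1, SDHC and NDUFS1, and each was lower in distal lung as well. When each of 20 libraries was left out in turn, 22 to 46 members were called in distal lung, the 46 without CF distal day 120 replicate 2, and 4 to 32 in proximal lung, the 32 without CF proximal day 120 replicate 2. In 13 of the 20 proximal fits the count moved by over 1.5 times.

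NDUFC1, a small membrane subunit of complex I, was lower in CF after NDUFA4 by the widest margin. It ranged from 26.0 to 44.3 CPM in WT and from 10.9 to 28.5 CPM in CF libraries, so that the ranges met only at their ends. The mean fold change was -0.77 ± 0.14 in proximal (adjusted p = 0.0020, edgeR) and -0.89 ± 0.11 in distal lung (adjusted p = 3.7e-05, edgeR). NDUFB2, an accessory subunit, was steady in WT at 135 to 163 CPM and spread from 58.0 to 154 CPM in CF, with fold changes of -0.63 (adjusted p = 0.0058, edgeR) and -0.66 (adjusted p = 1.7e-04, edgeR). NDUFS1, the largest core subunit, has the longest model of the 60 (4718 bases). It was between 59.8 and 86.0 CPM in WT and between 41.7 and 65.5 CPM in CF, and was lower by -0.31 (adjusted p = 0.028, edgeR) and -0.28 (adjusted p = 0.0054, edgeR).

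By day, the members lower in CF distal lung numbered 1 at day 65 (0.866% of all genes were lower and 4.36% higher), 11 at day 80 (1.81% and 4.11%), 8 at day 100 (1.34% and 3.96%), 4 at day 120 (1.09% and 3.3%) and 4 at term. The medians were -0.06, -0.77, -0.65, -0.40 and 0.16, and -0.07, -0.42, -0.36, -0.17 and 0.01 with the length trend removed. These counts depended on single libraries, including those of other days that share the fit. The day 80 count was 1 without any 1 of its 4 libraries and 32 without either CF distal day 120 library. The day 100 count was 0 or 1 without 1 of its own 4 libraries and 20 without either CF distal day 120 library. The day 120 count was 0 without either WT library or CF replicate 1 of that day, and 29 without CF replicate 2. With the WT day 100 libraries summed to 1 sample, 0 members were lower at day 65, 7 at day 80, 0 at day 100, 3 at day 120 and 2 at term, and 22 over the 5 days. At day 80 ATP5I was at 62.1 and 55.3 CPM in WT and 16.2 and 25.1 CPM in CF distal lung, lower by -1.51 (adjusted p = 0.023, edgeR), and NDUFB1, an accessory subunit, was lower by -1.44 (adjusted p = 0.039, edgeR). ATP5J2, a membrane subunit of ATP synthase, was lower by -1.40 (adjusted p = 0.027, edgeR). In CF proximal lung no member was called at days 65, 80, 100 or 120, where 0.113%, 0.0737%, 0.295% and 1.1% of all genes were higher and 0.0541%, 0.0147%, 0.0885% and 0.256% lower. At an unadjusted p under 0.05, 7, 2, 4 and 0 members would have counted, where 12.4%, 10.6%, 13% and 17.1% of all genes would have. At term NDUFA10 was at 51.7 and 69.7 CPM in WT and 34.4 and 21.8 CPM in CF distal lung, lower by -1.08 (adjusted p = 0.014, edgeR), and ATP5S was higher by 0.93 (adjusted p = 0.014, edgeR). The summed level of the 12 pericyte and smooth muscle markers before term was 743 to 1567 CPM in WT and 1258 to 2675 CPM in CF libraries, with 7 of 12 higher in CF distal lung over the 5 days, and its part in the members' difference was not tested.

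**Figure D5:**
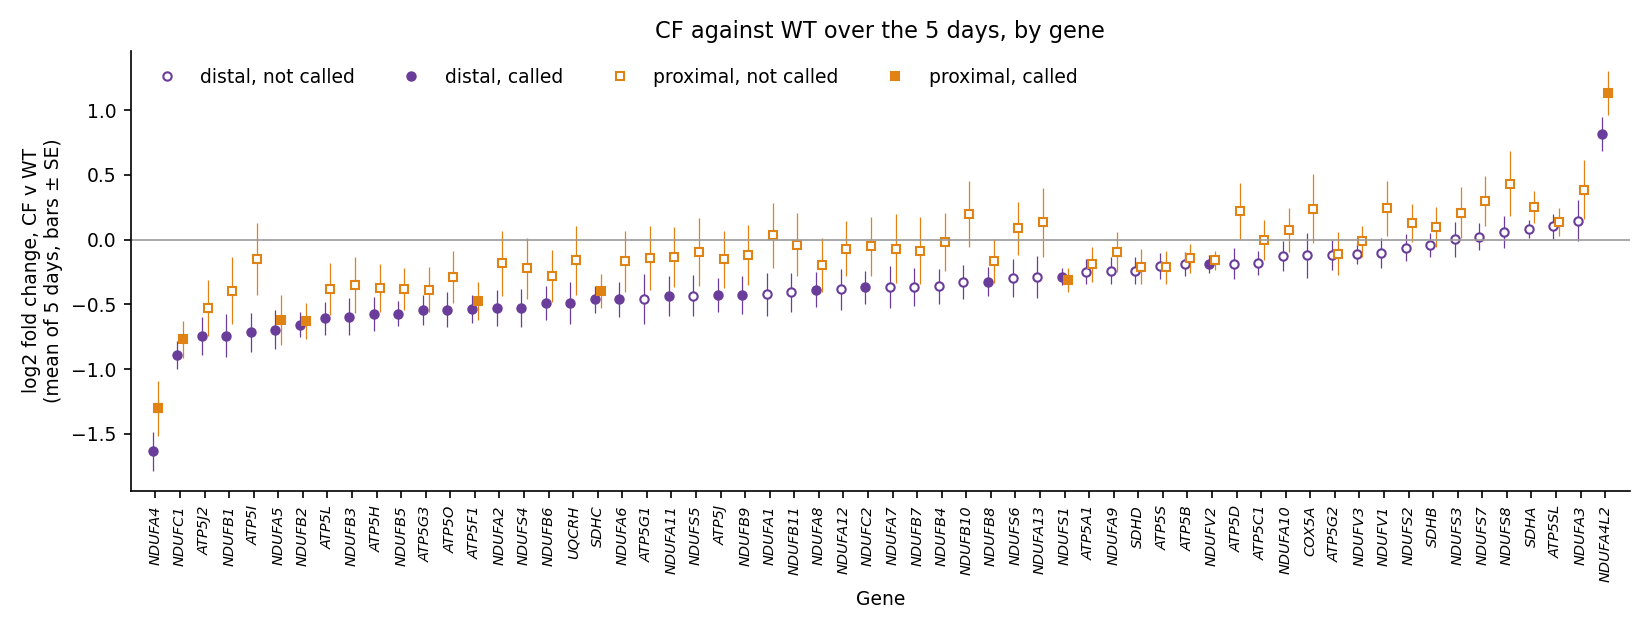
Log2 fold change, CF against WT, averaged over the 5 days (y axis, bars ± SE) for each of the 60 members (x axis), ordered by the distal value. Circles are distal and squares proximal lung, filled where the adjusted p was at most 0.05. The distal values run from -1.64 (NDUFA4) to 0.81 (NDUFA4L2), with 28 members called lower in distal and 7 in proximal lung.

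Distal and proximal lung of the same animals were compared within each genotype. No member was called at any day or over the 5 days in either genotype by edgeR or by DESeq2 with every library kept. Members were called between regions in CF lung at day 120 without CF proximal day 120 replicate 1 (edgeR). The same happened in WT lung at term without WT distal term replicate 1, where the median was 0.46. Each of these fits left 1 library in a group, and the shares of all genes called in them are not given. With every library kept, 0.0107% of all genes were higher in distal lung at WT day 120 and over the WT days, and 0.00534% were higher at WT term. Over the days 0.00534% (WT) and 0.00497% (CF) were lower (edgeR). In the other region comparisons 0% were called. Over the 12 comparisons 0 to 8 members had an unadjusted p under 0.05, the 8 being in WT lung at term, where 6.6% of all genes had one. Over the WT days it was 5 members and 3.18% of all genes, and over the 12 comparisons 0.701% to 6.6% of all genes. In WT lung the median over the 5 days was 0.10, with 57 of 60 members higher in distal lung, and 0.04 with the length trend removed. In CF lung it was -0.13, with 57 of 60 lower, and it changed sign between days, from 0.59 at day 65 to -0.70 at day 120. Without CF proximal day 120 replicate 2 the CF value at day 120 was 0.38, so no order of the regions can be read from it.

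The wider pathway was described from lists of partner genes, to be read beside the shares of all genes, which at term were 13.5% that rose and 11.1% that fell in WT proximal lung, 13.5% and 12.3% in WT distal lung and 11.5% and 11.5% in CF distal lung. Fits that leave out a library are given for the members only, and the members' calls in these fits rested on single libraries. How far the calls of partner genes do so is not given. Of 18 genes of the tricarboxylic acid cycle and pyruvate dehydrogenase, 7 rose at term in WT proximal lung and 6 in WT distal lung and 0 fell. MDH2, which makes oxaloacetate, rose by 0.65 (adjusted p = 0.0060, edgeR) and 0.92 (adjusted p = 0.0029, edgeR). The same list had 2 that rose and 2 that fell in CF distal lung, and OGDH, the first enzyme of the oxoglutarate dehydrogenase complex, differed between genotypes in its change to term by -1.50 in distal lung (adjusted p = 0.0034, edgeR) and -1.06 in proximal lung (adjusted p = 0.037, edgeR). Of 10 electron carriers and exchangers 5 rose and 0 fell in WT proximal, WT distal and CF distal lung. SLC25A4 and SLC25A5, the ADP/ATP carriers, rose in WT distal lung by 1.16 (adjusted p = 0.0056, edgeR) and 1.10 (adjusted p = 0.0027, edgeR). Of 16 regulators of mitochondrial biogenesis 2 rose and 2 fell in WT proximal and 2 rose and 6 fell in WT distal lung. PPARGC1A, a coactivator of these genes, rose by 1.49 in each region (adjusted p = 0.0088 and 0.026, edgeR) and ESRRA, a nuclear receptor it works with, by 1.03 (adjusted p = 0.0051, edgeR) and 0.95 (adjusted p = 0.0043, edgeR). TFAM, which packages and transcribes mitochondrial DNA, fell by 0.53 (adjusted p = 0.043, edgeR) and 0.69 (adjusted p = 0.028, edgeR).

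Of the 13 protein genes of mitochondrial DNA, 1 rose and 0 fell at term in WT proximal lung, 2 rose and 2 fell in WT distal lung, and in CF distal lung 5 rose and 1 fell. Against WT over the 5 days 5 of 13 were lower in CF proximal (7.91% of all genes) and 9 of 13 in CF distal lung (13.2%) and 0 were higher, COX2 by -0.80 (adjusted p = 0.0013, edgeR) and -0.88 (adjusted p = 1.9e-05, edgeR). These libraries were primed with oligo dT, so the level of mitochondrial transcripts also depends on their tails. Of 13 complex I assembly genes 0 rose and 1 fell at term in WT proximal lung, 1 rose and 0 fell in WT distal lung and 1 rose in CF distal lung. Of these 13, ACAD9, an assembly factor related to acyl-CoA dehydrogenases, was higher in CF over the 5 days. The difference was 1.16 in proximal (adjusted p = 2.3e-04, edgeR) and 0.94 in distal lung (adjusted p = 4.3e-06, edgeR). Of all genes 13.9% were higher in CF proximal and 18% in CF distal lung. The other genes of this list are not described for CF against WT, so ACAD9 does not stand for the list. Of 15 assembly genes of complexes II to V, 0 rose and 1 fell in WT proximal, 2 rose and 1 fell in WT distal and 4 rose in CF distal lung, among them SURF1 in WT distal lung, a cytochrome c oxidase assembly factor, by 1.19 (adjusted p = 0.015, edgeR).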

How the data were processed

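RNA-seq was done on 40 libraries of sheep lung. The deposited tables hold raw read counts per gene, which the authors made by aligning reads to Oar_v4.0 with STAR (2.6 in the submitters' processing notes) and counting with featureCounts 1.6.3, without normalization. The annotation source, strand setting and treatment of mates are not given in the sources used here, and NDUFA2, NDUFA7, NDUFS7 and ATP5J share exon positions with other genes. Of counts from 1 to 20, 69.2% to 85.8% were even in each library, a pattern that counting both mates of a read pair would give. Counts may therefore exceed the number of fragments. A joint table repeated the 20 CF columns. Groups came from sample titles. Counts were fitted with edgeR 4.0.16 (R 4.3.3): TMM scaling, filterByExpr (minimum count 10, minimum total 15), glmQLFit and glmQLFTest, and Benjamini-Hochberg adjustment over all genes tested, with 5 days per genotype and region (time), 10 conditions per region (CF against WT) or per genotype (distal against proximal). SEs follow from the fold change and F. CPM values use TMM over 40 libraries, and log2 CPM a prior count of 2. Since some replicates share an animal label, p-values measure only the spread between these samples, which may be technical.

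Members, lists and tests were chosen with earlier results of these data known. The rule for named genes took SDHA, the measured isoforms, the members highest and lowest per length in each complex, and in each comparison up to 3 members in each direction with the largest change (adjusted p at most 0.05, average log2 CPM at least 1, groups not overlapping), and of other lists up to 2. Complex II was described whole, and other genes outside the rule were named after their values were seen. Alternatives were RLE size factors, DESeq2 1.42.0, no filter, thinning to the shallowest library, a replicate block, summed WT day 100 libraries, the DEG rule, a lowess length trend removed, the mean over members and each library left out. On simulated counts, 1.49%, 22.4% and 81.8% of genes changed by 0.58, 1 and 2 on the log2 scale were called in WT distal lung (term against day 120). In that simulation 17726 of 17926 genes were left unchanged, while 13.5% of all genes rose and 12.3% fell in the real comparison. The adjustment over genes therefore differs, and these shares do not carry over to it. Proximal and distal libraries of a number come from the same animal by label, and their deviations correlated by -0.094 to 0.626 over 10 pairs.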

Additional observations from a re-analysis of the deposited data

Results flagged for a closer look

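Tests of the difference between genotypes in the change from day 120 to term (edgeR's quasi-likelihood test) marked NDUFA4L2 in both regions and ATP5S and NDUFV2 in distal lung. For NDUFA4L2 the CF change exceeded the WT change by 2.60 on the log2 scale in proximal lung and by 3.06 in distal lung. For ATP5S the difference was 1.88 in distal lung, where the gene fell in WT and rose in CF. For NDUFV2 it was 0.76 in distal lung, and this test passed in 7 of 20 fits that each left out 1 library. The proximal NDUFA4L2 test passed in 16 of 20 such fits, and the ATP5S and distal NDUFA4L2 tests in 20 of 20.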

How the results depend on the processing

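With all libraries kept, no called gene changed direction. The median of members changed sign for WT distal lung (term against day 65, 0.14 to -0.019 without the length trend) and for the regions in WT at days 100 and 120, where it lay between -0.013 and 0.037 in every such fit. The calls of members, summed over comparisons, were 72 between consecutive days, 41 from day 65 to term, 69 between genotypes, 0 between regions and 4 for the difference between genotypes in the change to term. With a replicate block, which was the animal for the regions and the replicate number otherwise, they were 79, 53, 106, 0 and 15 in the same order. In the comparisons other than region the replicate number does not stand for an animal, apart from the animal labels repeated among the WT day 100 libraries and between WT day 65 and CF day 100 replicate 2, and the samples had deviations that correlated by -0.415 to 0.616 between days and -0.088 to 0.242 between genotypes. Between genotypes DESeq2 called 117 and summing the WT day 100 libraries 43. That sum left 53 calls between consecutive days and 32 from day 65 to term. For the difference in change DESeq2 called 15 and thinned counts 7. The DEG rule left 0, 3, 7 and 0 calls in the comparisons other than region. Removing the length trend moved the median to 0.13 and 0.044 in WT proximal lung (term against days 120 and 65), -0.055 and 0.18 in WT distal lung (days 100 against 80, term against 120), 0.38 in CF proximal lung (term against 65), -0.32 and 0.31 in CF distal lung (80 against 65, term against 120), 0.084 for the genotypes in proximal lung on day 147, -0.42 and -0.36 for the genotypes in distal lung on days 80 and 100, and 0.049 and 0.024 between regions in WT at day 80 and CF at term. The mean over members was -0.043 in WT distal lung (120 against 100) and 0.092 for the genotypes in proximal lung on day 147.

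Leaving out each library in turn gave 46 to 89 calls between consecutive days, 32 to 50 from day 65 to term, 42 to 147 between genotypes, 0 to 29 between regions and 3 to 27 for the difference in change. The medians of members that moved by more than the replicate spread had these ranges over the libraries left out. In WT proximal lung they were -0.17 to -0.011 (day 80 against 65), -0.19 to 0.016 (day 120 against 100) and 0.031 to 0.17 (day 147 against 65). In WT distal lung they were -0.26 to 0.027 (day 80 against 65), -0.11 to -0.051 (day 100 against 80), -0.14 to -0.057 (day 120 against 100) and 0.20 to 0.63 (day 147 against 120). In CF proximal lung they were -0.57 to 1.17 (day 120 against 100) and -0.57 to 1.20 (day 147 against 120). In CF distal lung they were -1.12 to -0.42 (day 80 against 65), -0.43 to 0.44 (day 120 against 100) and -0.0062 to 0.68 (day 147 against 65). For CF against WT in proximal lung they were -0.76 to -0.25 (day 65), -0.59 to 0.13 (day 80), -0.87 to -0.053 (day 100), -0.87 to 0.93 (day 120) and 0.012 to 0.27 (day 147). For the genotype difference in the change to term they were -0.84 to 0.94 (proximal) and 0.14 to 1.03 (distal). For CF against WT in distal lung they were -0.92 to -0.64 (day 80), -0.74 to -0.58 (day 100), -0.99 to -0.041 (day 120) and -0.12 to 0.34 (day 147). For distal against proximal WT lung they were -0.0071 to 0.31 (day 65), 0.071 to 0.16 (day 80) and -0.030 to 0.46 (day 147). For distal against proximal CF lung they were -0.76 to 0.017 (day 80), -0.55 to 0.18 (day 100), -1.33 to 0.38 (day 120) and 0.037 to 0.33 (day 147).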
